A study of Sus scrofa with 24 samples.

Results

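Testes of letrozole-treated boars were compared between 5 and 3 weeks of age. The groups held 4 boars each and were set by the labels for treatment and age, so that 8 of the 24 samples in the series entered directly. All boars were Sus scrofa of PIC genetic background. Letrozole boars received an oral dose of 0.1 mg/kg every week, starting at 1 week of age, and their littermates on vehicle received canola oil. The 4 letrozole boars at 5 weeks and the 4 at 3 weeks came from 4 litters (14, 15, 39 and 41), given here by the middle number in each sample's title. No label states that this number is the litter, and each pairing below rests on that reading. Vehicle boars at 5 weeks (3) and at 3 weeks (4) served for comparison. The letrozole and vehicle boars at 2 weeks (4 each) also entered the fit. All boars in the fit shared in its estimates of the spread and of the litter effects. The vehicle and 2-week boars therefore also bear on the letrozole fold changes. The letrozole boars at 2 weeks are also in the plots of levels by age. Each boar gave tissue at 1 age only, so a difference between ages is a difference between littermates. Boars at 5 weeks had been weaned and had received more doses than boars at 3 weeks, and age, weaning and number of doses cannot be told apart in these groups. Whole testis was sequenced after selection of polyadenylated RNA.

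Letrozole blocks aromatase, the enzyme encoded by the CYP19A1 family that turns androgens into estrogens. In the boar, Leydig cells between the seminiferous tubules are the source of both androgens and large amounts of estrogen, and they pass through a wave of activity soon after birth. Inside the tubules, immature Sertoli cells, which will nurse the sperm, still divide during this period, beside gonocytes and the first spermatogonia. Peritubular myoid cells wrap the tubules, and macrophages lie among the Leydig cells. Estrogen is known in the boar as a signal that limits Sertoli cell number, and aromatase inhibition in early life is used to study that limit.

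The libraries carried the markers of immature testis at both ages. INSL3, a peptide hormone of Leydig cells, had 2216 to 7674 RPKM (reads scaled by exon length and library size) at 5 weeks and 4030 to 11954 RPKM at 3 weeks. AMH, the hormone of immature Sertoli cells, had 27.2 to 256 RPKM at 5 weeks and 74.2 to 177 RPKM at 3 weeks. DDX4, a helicase of germ cells, had 3.67 to 6.51 RPKM at 5 weeks and 2.47 to 8.15 RPKM at 3 weeks. The protamine gene PRM1, which marks elongating spermatids, did not exceed 0.244 RPKM at 5 weeks or 0.104 RPKM at 3 weeks, and TNP1, another spermatid gene, did not exceed 0.596 RPKM at 5 weeks or 0.0699 RPKM at 3 weeks.

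Depth ranged over 17616572 to 34638805 exon reads at 5 weeks and 22841047 to 25478779 exon reads at 3 weeks. Technical measures differed between the ages. The share of gene reads that lay in introns was 18.9, 19.5, 10.2 and 10.2% at 5 weeks and 7.82, 17.7, 8.21 and 7.41% at 3 weeks in litters 14, 15, 39 and 41, higher at 5 weeks in 4 of 4 litters. The mitochondrial share of exon reads was 6.83, 8.43, 5.92 and 7.00% at 5 weeks and 10.7, 8.27, 7.48 and 11.1% at 3 weeks in the same order. Litter 14 stood apart in how the change followed exon length: genes with exons under 2000 bases had a median log2 difference of -0.51 and genes of 8000 bases or more one of 0.67. In litters 15, 39 and 41 the corresponding medians lay between -0.16 and -0.04 for short genes and between 0.07 and 0.20 for long genes. Both letrozole libraries of litters 14 and 39 came from 1 sequencing lane per litter, while those of litters 15 and 41 came from different lanes, per the lane in the table headers. The part of the mitochondrial share and of exon length in the results was not tested. A fit with the intron share as a covariate is given beside some of the results.

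**Figure D1:**
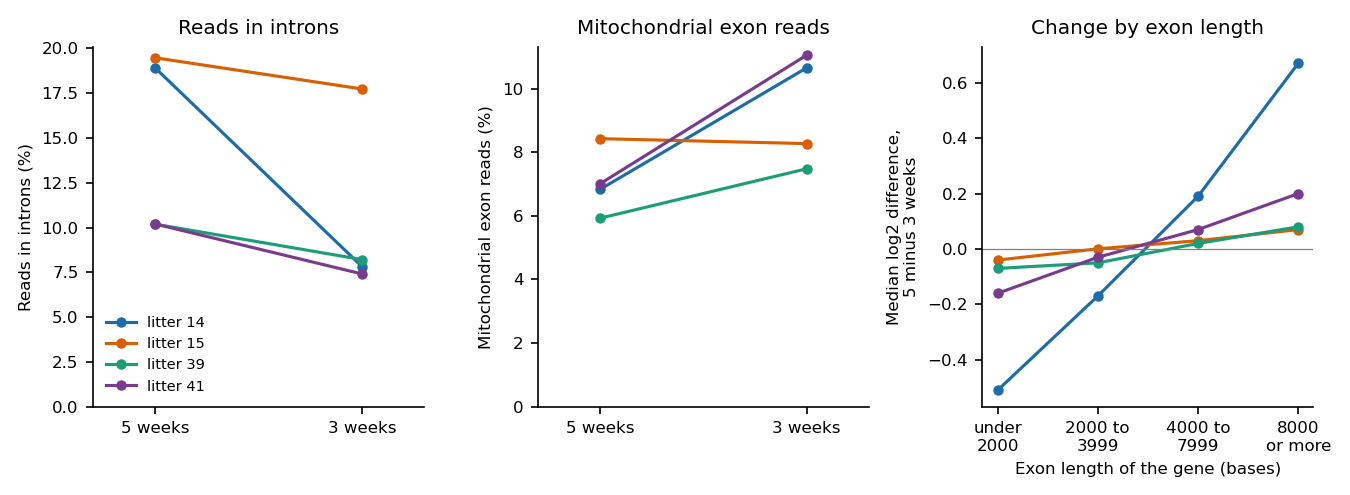
Share of gene reads in introns (left, percent) and mitochondrial share of exon reads (middle, percent) for each letrozole boar at 5 weeks and 3 weeks, with littermates joined, and (right) the median log2 difference, 5 minus 3 weeks, over genes in 4 classes of exon length. The intron share was higher at 5 weeks in each litter, and the line for litter 14 is the steepest, at -0.51 for short genes and 0.67 for long genes.

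Age differences were tested for 15597 genes with edgeR's quasi-likelihood test, with litter as a block and Benjamini-Hochberg adjustment, and a gene was said to rise or fall when its adjusted p was below 0.05. In the letrozole testis 4 genes fell between these ages (0.0256% of the genes tested) and 0 rose (0%). At an unadjusted p below 0.05, edgeR placed 1648 genes lower at 5 weeks (10.6%) and 1354 higher (8.68%). The choice of test moved the count: DESeq2 on the same counts and design placed 296 genes lower (1.9%) and 144 higher (0.923%), or 2.82% in all. Values of all 4 boars at 5 weeks lay below all 4 boars at 3 weeks for 195 genes (1.25%) and above them for 235 genes (1.51%). The median log2 fold change over all genes tested was 0.03, with 47.2% of genes below 0 and 52.8% above. Fold changes are given as log2 of 5 over 3 weeks with a standard error, and levels as CPM, exon reads scaled to library size by TMM, in the order of litters 14, 15, 39 and 41.

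KCNN1 had the smallest adjusted p. It encodes a small-conductance potassium channel that opens when calcium rises in the cell, and it lies on chromosome 2 at 59779790 to 59814815 in the coordinates of the deposited tables. Its level was 5.26, 3.67, 3.41 and 6.10 CPM at 5 weeks and 25.2, 13.6, 13.1 and 12.3 CPM at 3 weeks. The groups did not overlap, and the 3-week boar of litter 14 was the highest of the 8. KCNN1 fell by 1.81 ± 0.22 (log2; adjusted p in edgeR 0.00196) and was lower in each of the 4 litters. Without litter 14 the log2 fold change was -1.64, and the adjusted p was 0.179.

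NT5C3B encodes a cytosolic 5′-nucleotidase that removes phosphate from nucleotides released by RNA decay (chromosome 12, 20862199 to 20870488). It had 43.5, 34.6, 41.3 and 48.0 CPM at 5 weeks and 99.8, 61.6, 77.8 and 101 CPM at 3 weeks. All 4 boars at 5 weeks were lower than every boar at 3 weeks, and the gene fell by 1.01 ± 0.14 (edgeR adjusted p = 0.0092). Its fold changed little across litters, and it was -0.95 without litter 14 (adjusted p = 0.179).

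SLC25A34 encodes a member of the mitochondrial carrier family in the inner membrane (chromosome 6, 74909734 to 74920127). It had 12.7, 8.75, 10.0 and 19.6 CPM at 5 weeks and 91.3, 23.3, 44.7 and 28.5 CPM at 3 weeks. The groups did not overlap, although the 5-week boar of litter 41 came close to the 3-week boar of litter 15. It fell by 1.83 ± 0.28 (edgeR adjusted p = 0.0204), with a log2 fold change of -1.38 without litter 14 (adjusted p = 0.292).

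SORD encodes sorbitol dehydrogenase, which turns sorbitol into fructose (chromosome 1, 126654485 to 126701503). It had 176, 168, 256 and 207 CPM at 5 weeks and 1371, 274, 650 and 513 CPM at 3 weeks. The 3-week boar of litter 14 was the highest of the 8 by a wide margin, and the 3-week boar of litter 15 lay just above the highest boar at 5 weeks. SORD fell by 1.67 ± 0.28 (edgeR adjusted p = 0.036), with a log2 fold change of -1.14 without litter 14 (adjusted p = 0.292).

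The 4 calls did not hold in every alternative. None of the 4 kept an adjusted p below 0.05 in edgeR without litter 14, without litter 15 or without litter 39, where the smallest adjusted p of the 4 was 0.0873. Without litter 41, KCNN1, SLC25A34 and NT5C3B passed and SORD did not (adjusted p = 0.0951). With the intron share as a covariate, KCNN1 passed (adjusted p = 0.0158) and NT5C3B did not (adjusted p = 0.0573), nor did SLC25A34 and SORD (adjusted p = 0.158 each). All 4 missed the threshold with no litter block (adjusted p 0.0505 to 0.261) and in the compared groups alone (0.446 to 0.538). With a vehicle boar of unclear age, otherwise left out, entered at 3 weeks, KCNN1 passed (0.0377) and NT5C3B, SLC25A34 and SORD did not (0.153 each). SORD also missed it with terms for lane (0.0515) and without the vehicle boar whose header differs from its label (0.0585). The direction was the same in each of 18 alternatives for each of the 4 genes.

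**Figure D2:**
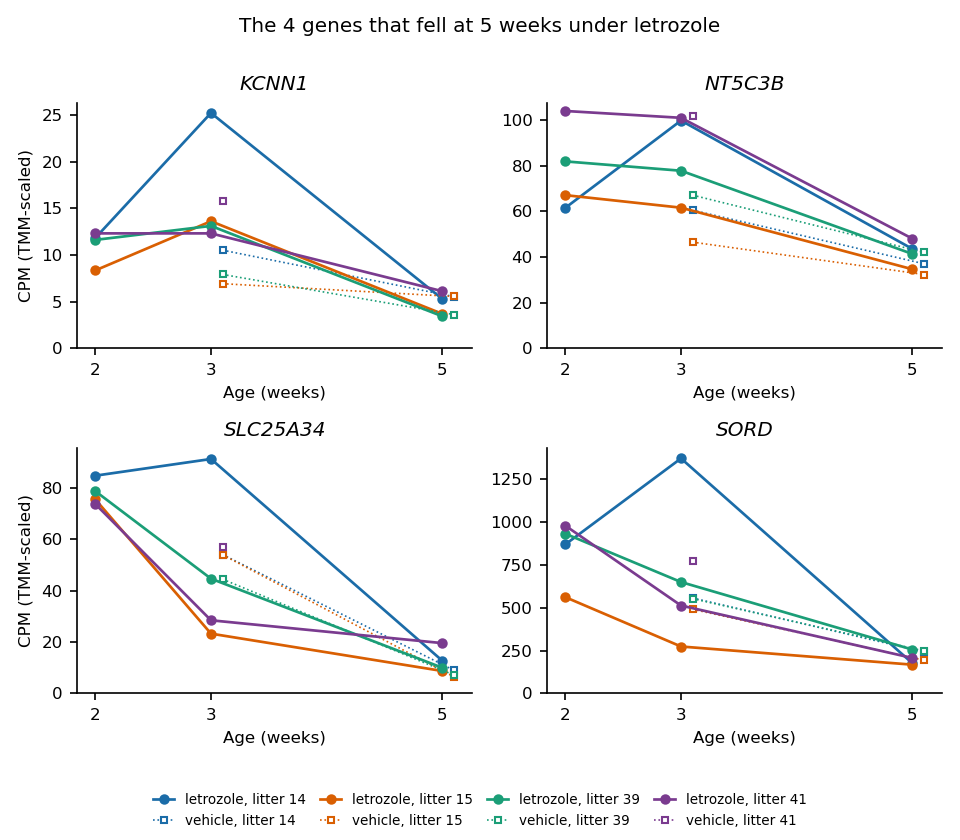
Levels of KCNN1, NT5C3B, SLC25A34 and SORD (CPM, linear axis from 0) against age in weeks, with 1 filled point per letrozole boar joined within litters and open squares with dotted lines for vehicle boars at 3 and 5 weeks. In each panel the 4 letrozole points at 5 weeks lie below the 4 at 3 weeks, and litter 14 is the highest letrozole point at 3 weeks for KCNN1, SLC25A34 and SORD.

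No gene rose, and the smallest adjusted p among genes higher at 5 weeks was 0.0609, for AKAP5. FRS2, an adaptor of growth factor receptors, was higher past the threshold in edgeR with lane terms (adjusted p = 0.0261) and without litter 41 (adjusted p = 0.0321), and had 1.11 ± 0.31 (adjusted p = 0.131) in all 4 litters. It was chosen after its values were seen. AKAP5 encodes a scaffold that tethers protein kinase A. It had 26.1, 17.9, 26.8 and 20.0 CPM at 5 weeks and 10.3, 6.13, 14.7 and 11.3 CPM at 3 weeks, with no overlap and a log2 fold change of 1.13 ± 0.21. The next 4 genes by p-value were DSG2, CNNM1, CPXM2 and AMDHD1, with edgeR adjusted p of 0.0658, 0.0765, 0.0823 and 0.0823. DSG2, a desmosomal cadherin that joins epithelial cells, had 46.0, 54.8, 63.9 and 46.9 CPM at 5 weeks and 18.3, 39.3, 40.3 and 25.8 CPM at 3 weeks. CPXM2, a member of the carboxypeptidase family, had the largest log2 fold change of these 5, 1.72 ± 0.36, with 29.0 to 74.9 CPM at 5 weeks and 10.4 to 19.3 CPM at 3 weeks. CNNM1 had a log2 fold change of 0.90 ± 0.18, and AMDHD1, an enzyme of histidine breakdown, one of 1.06 ± 0.22. All 5 genes were higher at 5 weeks in 4 of 4 litters.

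Gene lists by function and cell type were described by counts, since no member of any list passed the adjusted threshold in edgeR. Below, "lower" and "higher" within a list count members at an unadjusted p below 0.05, to be read against 10.6% lower and 8.68% higher among all genes. Without litter 14 these shares were 3.76% and 2.56%, and with the intron covariate 5.01% and 6.14%. Without litter 15 they were 12.2% and 9.86%, without litter 39 10.2% and 7.22%, and without litter 41 10.5% and 7.88%. Counts from each fit are to be read against the shares of that fit. The lists with the largest share of members lower were those for macrophages, respiratory chain, peritubular muscle, interferon response, cell cycle and antioxidant enzymes. Members higher numbered 2 in the antioxidant list (11.8%), 1 in the interferon list and 0 in the others of these. At an adjusted p below 0.05, DESeq2 placed 1.9% of all genes lower. Its counts lower were 2 of 23 for respiratory chain, 3 of 18 for peritubular muscle, 3 of 26 for interferon and 4 of 17 for antioxidant genes. It placed 1 member higher in each of the interferon and antioxidant lists.

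Of 23 macrophage genes tested, 13 were lower (56.5%) and 0 higher, and the median log2 fold change was -0.72. DESeq2 placed 8 of the 23 lower at an adjusted p below 0.05, beside 1.9% of all genes tested. CD163, the scavenger receptor that takes up hemoglobin in tissue macrophages, had 24.2, 21.8, 20.7 and 15.5 CPM at 5 weeks and 30.4, 41.1, 40.4 and 58.1 CPM at 3 weeks. All 4 boars at 5 weeks lay below the boars at 3 weeks, and the fold change was -1.01 ± 0.25 (edgeR adjusted p = 0.11, DESeq2 adjusted p = 0.0121). The 3 chains of complement C1q, which tissue macrophages make, had log2 fold changes of -1.37 ± 0.37 (C1QA), -1.28 ± 0.34 (C1QB) and -1.20 ± 0.33 (C1QC). LYVE1, a hyaluronan receptor of lymphatic vessels and of perivascular macrophages, had 16.6, 11.0, 12.7 and 12.6 CPM at 5 weeks and 30.2, 14.2, 21.7 and 22.7 CPM at 3 weeks. The summed level of the list was 494 to 707 CPM at 5 weeks and 697 to 1081 CPM at 3 weeks, lower in 4 of 4 litters. Leaving out litters 14, 15, 39 or 41 left 11, 13, 11 and 10 members lower, and the intron covariate left 8 (34.8%, against 5.01% of all genes in that fit). In whole testis, fewer cells of a type and less RNA per cell cannot be told apart, here and for each cell type below.

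Other immune and blood genes differed in pattern. Of 24 genes of T, B and NK cells, 0 were lower and 1 was higher, CD3G, a chain of the T cell receptor complex, with 2.05 to 2.98 CPM at 5 weeks and 0.867 to 1.85 CPM at 3 weeks (log2 fold change 0.90 ± 0.25, edgeR adjusted p = 0.131). The summed level of this list was 53.4 to 61.1 CPM at 5 weeks and 50.7 to 68.7 CPM at 3 weeks. Of 6 mast cell genes, 2 were higher, IL1RL1 and MS4A2, but 0 without litter 14 or without litter 15. Of 8 erythroid genes, 3 were lower and all 8 had negative fold changes, with a median of -0.97. HBM, a globin gene, had 0.812, 0.542, 1.67 and 0.512 CPM at 5 weeks and 7.70, 0.695, 7.80 and 9.56 CPM at 3 weeks. ALAS2, the first enzyme of heme synthesis in red cell precursors, had 8.03, 4.67, 6.29 and 1.79 CPM at 5 weeks and 50.5, 8.37, 21.8 and 90.7 CPM at 3 weeks. The list summed to 169 to 580 CPM at 5 weeks and 265 to 3835 CPM at 3 weeks. The part of blood in the other results was not tested.

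Of 33 cell cycle genes, 15 were lower (45.5%) and 0 higher, 30 had negative fold changes, and the median was -0.28. DESeq2 placed 7 of the 33 lower at an adjusted p below 0.05, beside 1.9% of all genes tested. BIRC5, the chromosomal passenger protein survivin, had 13.8, 16.8, 18.4 and 23.0 CPM at 5 weeks and 42.3, 28.5, 22.5 and 44.9 CPM at 3 weeks. The groups overlapped at 1 boar each (23.0 and 22.5 CPM), and the log2 fold change was -0.93 ± 0.17 (edgeR adjusted p = 0.0609). CCNB1, the cyclin that drives entry into mitosis, had 27.0, 28.3, 33.3 and 27.8 CPM at 5 weeks and 50.8, 43.9, 41.5 and 68.1 CPM at 3 weeks, with no overlap (-0.79 ± 0.17, edgeR adjusted p = 0.0836). UBE2C, CDCA8 and CDC20, which act in mitotic exit and chromosome alignment, had log2 fold changes of -0.87 ± 0.19, -0.69 ± 0.17 and -0.61 ± 0.17, each lower in 4 of 4 litters with no overlap. The list does not say which cells divided. Litter medians were -0.62, -0.40, -0.03 and -0.45, so litter 39 showed almost no difference. Between 8 and 13 members were lower when 1 litter was left out, with 8 without litter 41, and 18 were lower with the intron covariate.

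The respiratory chain and mitochondrial genome list had 12 of 23 members lower (52.2%), 0 higher and a median of -0.57. UQCRC1, a core subunit of complex III, had 120, 110, 140 and 151 CPM at 5 weeks and 318, 123, 214 and 280 CPM at 3 weeks (log2 fold change -0.81 ± 0.18, edgeR adjusted p = 0.103). COX4I1, a nuclear-encoded subunit of cytochrome oxidase, had 136, 131, 169 and 188 CPM at 5 weeks and 383, 149, 209 and 353 CPM at 3 weeks. Both genes were lower in 4 of 4 litters, least so in litter 15. The litter medians were -1.19, 0.01, -0.22 and -0.67, and 1 member was lower without litter 14 and 6 without litter 41. With the intron covariate 2 were lower and 1 was higher. The members were short, with a median exon length of 1042 bases against 3890 bases for all genes tested, and short genes were lower in litter 14 as given above.

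Of 29 genes of fatty acid metabolism, 8 were lower (27.6%), 1 was higher and the median was -0.25. ANGPTL4, a secreted inhibitor of lipoprotein lipase that fasting and fatty acids induce, had 18.2, 15.7, 15.5 and 46.8 CPM at 5 weeks and 357, 53.9, 104 and 62.2 CPM at 3 weeks. The groups did not overlap, and the log2 fold change was -2.32 ± 0.46 (edgeR adjusted p = 0.0658, DESeq2 adjusted p = 3.26e-05). ACADVL, which starts the oxidation of very long fatty acids in mitochondria, had 44.7, 41.8, 52.3 and 54.9 CPM at 5 weeks and 114, 51.9, 110 and 84.4 CPM at 3 weeks (-0.86 ± 0.17, edgeR adjusted p = 0.0658). HADHA, a subunit of the trifunctional protein of the same pathway, had a log2 fold change of -1.20 ± 0.30, and PLIN2, a coat protein of lipid droplets, one of -1.49 ± 0.46. The member that was higher was ACACA, the enzyme that commits acetyl-CoA to fatty acid synthesis (0.54 ± 0.15). Without litter 14, 5 members were lower and 3 were higher, and with the intron covariate also 5 and 3.

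Antioxidant enzymes had 7 of 17 members lower (41.2%), 2 higher and a median of -0.44. Catalase (CAT), which breaks down hydrogen peroxide, had 840, 429, 364 and 625 CPM at 5 weeks and 1804, 703, 940 and 1037 CPM at 3 weeks. Both boars of litter 14 were the highest of their age, the groups overlapped, and the log2 fold change was -1.0 ± 0.18 (edgeR adjusted p = 0.0609). PRDX6, a peroxiredoxin, had 127, 133, 188 and 159 CPM at 5 weeks and 481, 157, 255 and 345 CPM at 3 weeks. NQO1, a quinone reductase, and GCLC, the first enzyme of glutathione synthesis, were the 2 members that were higher (1.83 ± 0.55 and 0.41 ± 0.15). Without litter 14, 4 members were lower and 0 higher, and with the intron covariate 3 were lower and 2 higher.

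**Figure D3:**
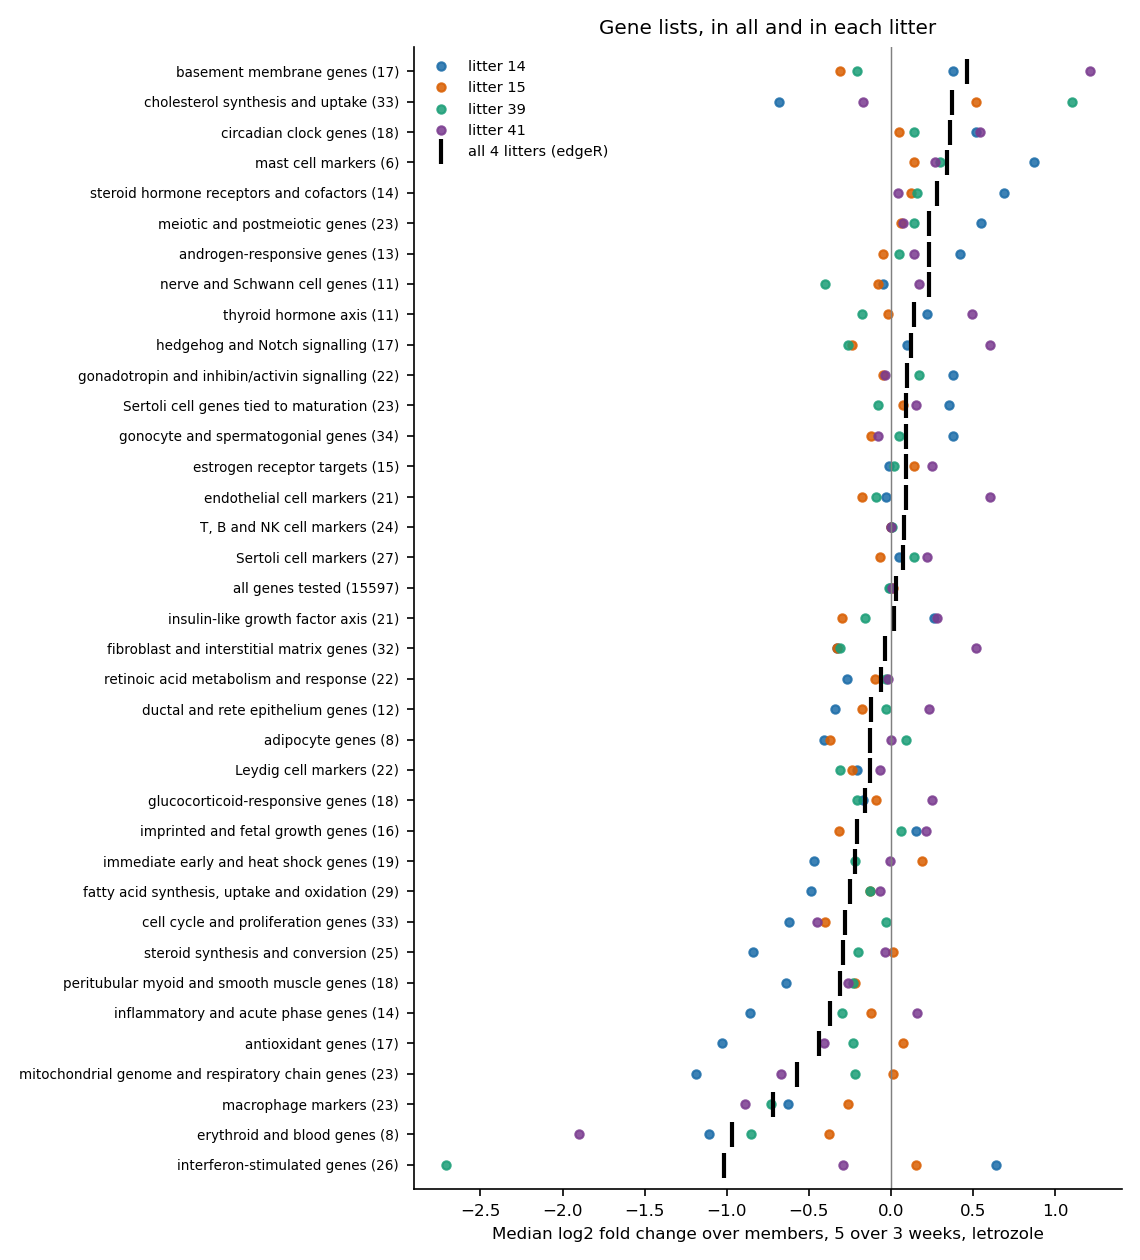
Median log2 fold change, 5 over 3 weeks in letrozole testis, of each gene list (number of members tested in parentheses), over all litters from edgeR (black bar) and as the log2 difference within each litter (points). Medians of the macrophage, erythroid, cell cycle, peritubular, Leydig, fatty acid and retinoic acid lists are below 0 in each litter. The cell cycle median is -0.03 in litter 39. The interferon list has litter 39 alone at -2.71.

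Of 18 genes of peritubular myoid and smooth muscle cells, 9 were lower (50%), 0 higher and the median was -0.31. ACTA2, smooth muscle actin, had 133, 122, 73.7 and 51.3 CPM at 5 weeks and 283, 139, 117 and 190 CPM at 3 weeks (-0.93 ± 0.25, edgeR adjusted p = 0.125, DESeq2 adjusted p = 0.0234). ACTG2, the enteric smooth muscle actin, had 4.35, 3.00, 1.71 and 1.69 CPM at 5 weeks and 10.3, 4.49, 2.87 and 6.45 CPM at 3 weeks. Both were lower in 4 of 4 litters with overlapping groups. TPM2 and CSRP1, which bind actin filaments, had log2 fold changes of -0.53 ± 0.15 and -0.63 ± 0.19, whereas MYLK, the kinase of myosin light chain, had 0.25 ± 0.16. Without litter 14, 3 members were lower (16.7%, against 3.76% of all genes in that fit), and without litter 15, 5 were lower and 1 was higher. With the intron covariate 5 were lower.

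Interstitial and basement membrane genes had different medians. The 32 genes of fibroblasts and interstitial matrix had 5 lower, 2 higher and a median of -0.04 (8, 1 and -0.22 without litter 41). POSTN, a matrix protein of growing connective tissue, had 28.9, 8.75, 6.82 and 11.8 CPM at 5 weeks and 47.3, 29.7, 25.4 and 23.5 CPM at 3 weeks (-1.23 ± 0.34, edgeR adjusted p = 0.131). LOXL1, which crosslinks elastin, had 10.5 to 17.3 CPM at 5 weeks and 16.1 to 37.2 CPM at 3 weeks. The 17 basement membrane genes all had positive fold changes, with 2 higher, 0 lower and a median of 0.46. That median rested on litter 41: litter medians were 0.38, -0.31, -0.21 and 1.21, and without litter 41 it was -0.08 with 1 lower and 0 higher. Without litter 14 none was lower or higher. In a fit of the compared groups alone the median was 0.21. HSPG2, the heparan sulfate proteoglycan perlecan, had 579, 493, 390 and 400 CPM at 5 weeks and 257, 611, 466 and 50.3 CPM at 3 weeks. The 3-week letrozole boar of litter 41 was the lowest of the 8, and its vehicle littermate at 3 weeks had 31.9 CPM. LAMA1, the laminin chain of the tubule wall, had 382 to 522 CPM at 5 weeks and 220 to 443 CPM at 3 weeks. The list is of long genes, with a median exon length of 7018 bases. Of 21 endothelial genes, 3 were lower and 4 higher (5 and 1 without litter 41), and PLVAP, the diaphragm protein of fenestrated capillaries, had 11.3, 14.4, 10.5 and 10.5 CPM at 5 weeks and 49.1, 27.6, 19 and 11.4 CPM at 3 weeks (-1.01 ± 0.26, edgeR adjusted p = 0.123).

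Steroid synthesis differed less evenly between litters. Of 25 genes tested, 5 were lower (20%) and 1 higher, with a median of -0.29. Without litter 14 none was lower or higher, without litter 39 3 were lower, and with the intron covariate 2 were lower and 2 higher. CYP19A1 encodes aromatase, the drug's target, on chromosome 1 at 120477197 to 120696877. The pig has several near-identical aromatase genes, and reads of these copies may be shared, so its level is uncertain as that of 1 gene. It had 1333, 1209, 3129 and 766 CPM at 5 weeks and 5176, 1196, 3589 and 3186 CPM at 3 weeks. The boars at 5 weeks were far lower than their littermates in litters 14 and 41 and close to them in litters 15 and 39, and the groups overlapped (-0.98 ± 0.38, edgeR adjusted p = 0.197). CYP11A1, the side-chain cleavage enzyme that makes pregnenolone from cholesterol, had 794, 959, 628 and 754 CPM at 5 weeks and 2730, 626, 1484 and 1526 CPM at 3 weeks (-0.94 ± 0.31, edgeR adjusted p = 0.162). STAR, which carries cholesterol into mitochondria, and CYP17A1, which makes androgen precursors, had log2 fold changes of -1.22 ± 0.55 and -0.58 ± 0.27. HSD11B2, which inactivates cortisol, had 90.8, 63.1, 49.0 and 281 CPM at 5 weeks and 368, 191, 221 and 124 CPM at 3 weeks, with litter 41 opposite to the others. SULT2A1, the hydroxysteroid sulfotransferase of boar testis, had 71.4, 19.1, 103 and 103 CPM at 5 weeks and 117, 19.3, 147 and 163 CPM at 3 weeks (-0.53 ± 0.37, edgeR adjusted p = 0.421). Among the letrozole boars at 3 weeks litter 15 was the lowest in CYP19A1, CYP11A1 and SULT2A1.

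The 22 Leydig cell genes had 5 lower and 0 higher, 3 of them also in the steroid list, and a median of -0.13. INSL3 had a log2 fold change of -0.90 ± 0.41, and NR2F1, an orphan nuclear receptor, had 21.7, 23.4, 17.2 and 17.4 CPM at 5 weeks and 45.4, 32.0, 21.9 and 15.7 CPM at 3 weeks. Without litter 14 none of the list was lower or higher, without litter 39 3 were lower, and with the intron covariate 2 were. Cholesterol synthesis and uptake had 3 of 33 members lower, 4 higher and a median of 0.37. The litter medians were -0.68, 0.52, 1.10 and -0.17, and without litter 39 the median was 0.0021 with 2 lower and 1 higher. Without litter 14, 0 were lower and 4 higher, without litter 15, 2 and 1, and without litter 41, 2 and 6. STARD4, a cholesterol transporter of the cytosol, had 49.3, 16.6, 147 and 14.3 CPM at 5 weeks and 17.6, 14.0, 35.8 and 13.4 CPM at 3 weeks (1.13 ± 0.41, edgeR adjusted p = 0.181). SCAP, which escorts the sterol-sensing transcription factors, had 127 to 153 CPM at 5 weeks and 154 to 310 CPM at 3 weeks, with no overlap (-0.50 ± 0.19). With the intron covariate 12 cholesterol genes were higher and 0 lower.

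Sertoli cell genes showed no common direction. Of 27 markers, 4 were lower and 3 higher with a median of 0.07, and of 23 genes tied to Sertoli maturation 4 were lower and 4 higher with a median of 0.09. Without litter 14 the markers had 0 lower and 1 higher, and with the intron covariate 2 lower and 7 higher. VIM, the intermediate filament of Sertoli and stromal cells, had 2446, 1696, 2973 and 2430 CPM at 5 weeks and 4732, 2509, 3588 and 4054 CPM at 3 weeks (-0.63 ± 0.20, edgeR adjusted p = 0.155). CITED1, a transcriptional coregulator, had a log2 fold change of -0.53 ± 0.18. SOX9 and WT1, transcription factors that keep Sertoli identity, had 0.47 ± 0.19 and 0.42 ± 0.16. FSHR, the receptor for follicle-stimulating hormone, had 82.6, 86.9, 64.4 and 94.7 CPM at 5 weeks and 40.6, 69.3, 55.1 and 76.4 CPM at 3 weeks, higher in 4 of 4 litters with overlapping groups (0.45 ± 0.21, edgeR adjusted p = 0.255). AMH had 93.4, 125, 551 and 821 CPM at 5 weeks and 379, 240, 628 and 279 CPM at 3 weeks. It was lower in 3 litters and higher in litter 41, and its log2 fold change was 0.07 ± 0.62 (edgeR adjusted p = 0.958) and -0.96 without litter 41.

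Germ cell genes had few members lower without the intron covariate. Of 34 genes of gonocytes and spermatogonia, 1 was lower and 2 higher, with a median of 0.09. With the intron covariate 4 were lower and 0 higher (11.8% lower, against 5.01% of all genes in that fit). Without litter 14, 2 were lower and 0 higher (5.88% lower, against 3.76% of all genes). RET, the receptor through which GDNF maintains spermatogonial stem cells, had 9.37, 15.8, 8.26 and 9.94 CPM at 5 weeks and 4.53, 7.61, 8.16 and 7.52 CPM at 3 weeks (0.64 ± 0.25, edgeR adjusted p = 0.198). The groups did not overlap, although both boars of litter 39 had nearly the same level. RHBG, an ammonium transporter, had 27.6 to 48.9 CPM at 5 weeks and 36.7 to 116 CPM at 3 weeks. Of 23 meiotic and later genes, 0 were lower and 4 higher (17.4%), with a median of 0.23. MLH3, a mismatch repair protein needed for meiotic crossovers, had 25.4 to 31.1 CPM at 5 weeks and 19.9 to 27.5 CPM at 3 weeks. HORMAD1, a protein of the meiotic chromosome axis, had 2.34 to 3.61 CPM at 5 weeks and 1.76 to 2.69 CPM at 3 weeks. Without litter 14 none of the meiotic list was lower or higher, nor was any with the intron covariate, and 1 was higher without litter 39 or without litter 41.

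Among hormone receptors and their targets, members at an edgeR unadjusted p below 0.05 lay in both directions. Fold changes were positive for 11 of 14 steroid receptors and cofactors, 11 of 15 estrogen targets and 9 of 13 androgen-responsive genes. Over all genes tested 52.8% were positive. LHCGR, the receptor for luteinizing hormone, had 278, 229, 33.1 and 101 CPM at 5 weeks and 115, 210, 70.2 and 170 CPM at 3 weeks, higher in 2 litters and lower in 2 (0.01 ± 0.39, edgeR adjusted p = 0.988). ESR1, the estrogen receptor alpha, had 21.1, 32.1, 15.2 and 16.3 CPM at 5 weeks and 16.5, 29.8, 13.1 and 15.4 CPM at 3 weeks (0.19 ± 0.21, edgeR adjusted p = 0.631). Of 15 genes known as estrogen receptor targets in other tissues, 2 were lower and 3 higher, with a median of 0.09, and without litter 14 0 were lower and 1 higher. GREB1, a cofactor that the estrogen receptor induces in breast cells, had 26.9, 47.3, 8.80 and 8.84 CPM at 5 weeks and 5.73, 7.90, 10.6 and 3.2 CPM at 3 weeks (1.67 ± 0.41, edgeR adjusted p = 0.11, DESeq2 adjusted p = 0.00582). It was higher in litters 14, 15 and 41 and lower in litter 39. CXCL12, a chemokine that estrogen induces elsewhere, had a log2 fold change of -0.66 ± 0.21, with 151 CPM at both ages in litter 39 and lower levels at 5 weeks in the other 3 litters. Of 13 androgen-responsive genes, 3 were lower and 4 higher (1 and 1 without litter 14, 2 and 2 without litter 41), among those higher TMPRSS2, a serine protease, at 0.417 to 0.512 CPM at 5 weeks and 0.0963 to 0.309 CPM at 3 weeks. PGRMC1, a heme-binding membrane protein, had 325 to 702 CPM at 5 weeks and 427 to 1152 CPM at 3 weeks (-0.69 ± 0.20). NCOA3, a coactivator of steroid receptors, had 86.0 to 142 CPM at 5 weeks and 57.7 to 120 CPM at 3 weeks.

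Of 18 circadian clock genes, 5 were higher (27.8%), 0 lower and the median was 0.36. ARNTL, which forms the clock's activating dimer with CLOCK, had 20.0, 20.3, 22.0 and 22.9 CPM at 5 weeks and 13.2, 13.4, 18.1 and 17.7 CPM at 3 weeks, with no overlap (0.46 ± 0.12, edgeR adjusted p = 0.125, DESeq2 adjusted p = 0.0113). PER2, a repressor of that dimer, had 17.9, 13.3, 11.3 and 9.28 CPM at 5 weeks and 10.2, 13.4, 8.69 and 4.22 CPM at 3 weeks. ARNTL and PER2 usually peak at opposite phases of the day. The hour of tissue collection is not given in the sources used here. Without litter 14, 1 clock gene was higher, and without litter 39 or without litter 41, 3 were. The clock genes had a median exon length of 5920 bases, against 3890 bases for all genes tested. Long genes were higher in litter 14, as given above.

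The interferon-stimulated list had 13 of 26 members lower, 1 higher and a median of -1.02, and this rested on 1 library. MX2, an antiviral GTPase, had 12.4, 24.0, 8.20 and 7.23 CPM at 5 weeks and 14.9, 36.3, 173 and 16.9 CPM at 3 weeks. BST2, which tethers budding viruses, had 5.35, 8.96, 14.9 and 14.3 CPM at 5 weeks and 17.6, 14.4, 81.5 and 26.2 CPM at 3 weeks. The 3-week boar of litter 39 was the highest for both genes. Without litter 39 the median was 0.02, with 2 members lower and 3 higher. In a fit of the compared groups alone, 2 of 25 members were lower (8%, against 5.02% of all genes in that fit). In that fit 1 member was higher and the median was -0.53.

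**Figure D4:**
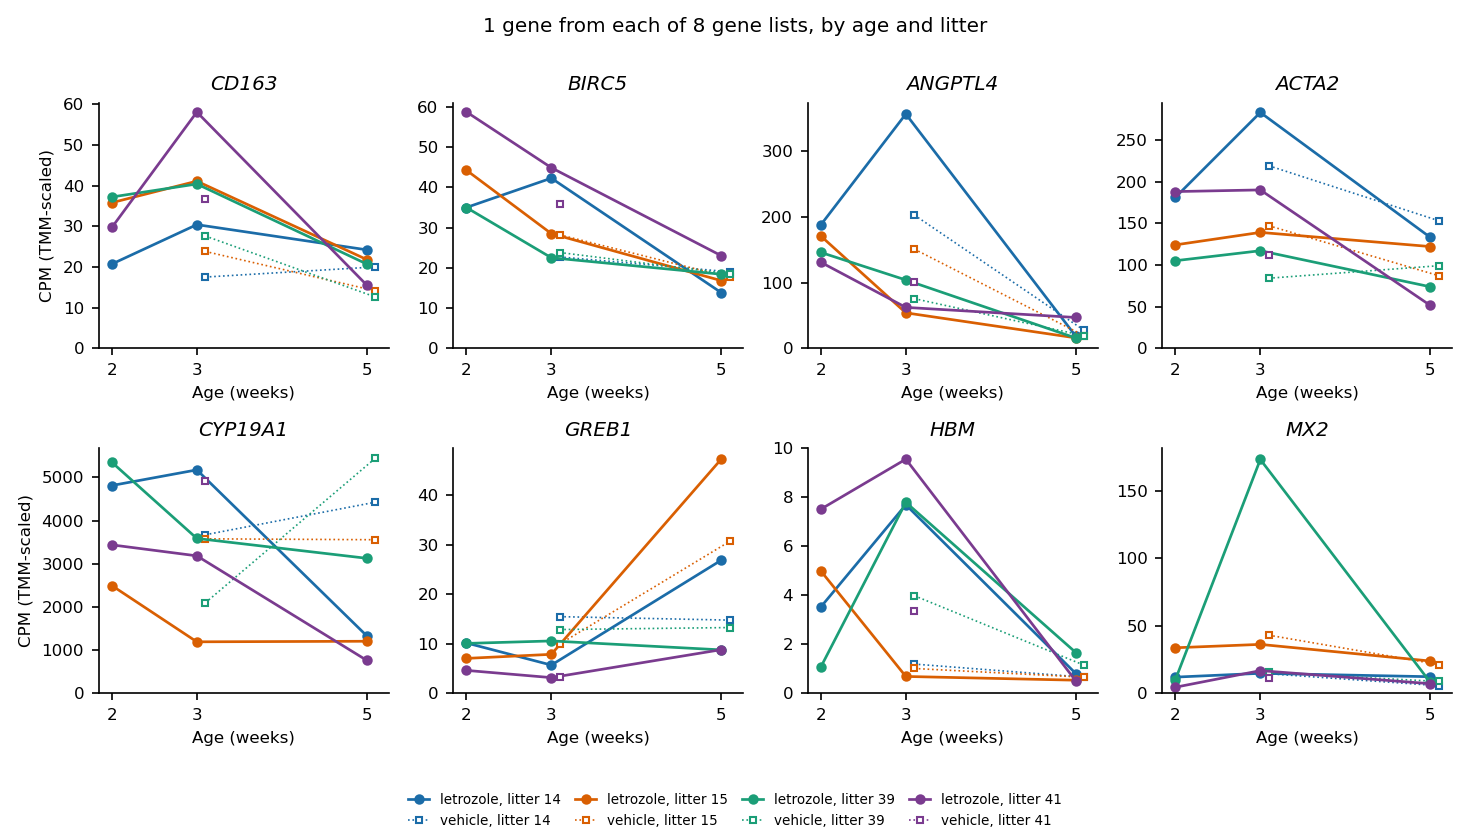
Levels (CPM, linear axes from 0) against age in weeks of CD163 (macrophage), BIRC5 (cell cycle), ANGPTL4 (fatty acids), ACTA2 (peritubular), CYP19A1 (steroid synthesis), GREB1 (estrogen targets), HBM (erythroid) and MX2 (interferon), with letrozole boars as filled points joined within litters and vehicle boars as open squares. MX2 shows 1 point at 173 CPM, the 3-week letrozole boar of litter 39, and CYP19A1 shows letrozole litters 14 and 41 low at 5 weeks.

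The remaining lists had medians between -0.37 and 0.28. Inflammatory genes had 3 of 14 lower, including LBP, the lipopolysaccharide-binding protein, at 0.538 to 1.43 CPM at 5 weeks and 0.821 to 8.86 CPM at 3 weeks. Immediate early and heat shock genes, which respond to handling of tissue, had 2 of 19 lower, ZFP36 (-0.57 ± 0.17) and DUSP1 (-0.89 ± 0.32). Of 12 genes of ductal and rete epithelium, 2 were lower, the keratins KRT8 and KRT18, but 0 without litter 14. KRT8 had 25.4, 23.4, 76.0 and 82.0 CPM at 5 weeks and 392, 47.8, 169 and 72.8 CPM at 3 weeks. Of 11 nerve and Schwann cell genes, 1 was lower and 1 higher. Adipocyte genes had 2 of 8 lower, PPARG and FABP4, and ADIPOQ, the defining adipocyte hormone, did not exceed 0.0207 RPKM at 5 weeks or 0.0123 RPKM at 3 weeks. The insulin-like growth factor axis had 2 lower and 2 higher of 21 (3 and 0 without litter 14, 1 and 0 without litter 41). With the intron covariate 6 were lower (28.6%) and 1 higher, against 5.01% and 6.14% of all genes in that fit. The binding protein IGFBP2 had 16.6 to 35.6 CPM at 5 weeks and 28.7 to 60.5 CPM at 3 weeks. IGF2R had 140 to 200 CPM at 5 weeks and 37.7 to 216 CPM at 3 weeks. Imprinted and fetal growth genes had 3 lower and 1 higher of 16. Those lower included GRB10, an adaptor that dampens insulin signalling (-0.38 ± 0.12), and NNAT (-0.60 ± 0.19), both without overlap. Genes of gonadotropin and inhibin signalling had 1 lower and 3 higher of 22, steroid receptors and cofactors 2 lower and 2 higher of 14, and glucocorticoid-responsive genes 4 lower and 4 higher of 18. Without litter 14 these 3 lists had 1 lower and 0 higher each. Without litter 41 the glucocorticoid list had 4 lower and 0 higher, and the receptor list 1 and 0. With lane terms the receptor list had 1 lower and 6 higher (42.9%, against 12.4% of all genes in that fit). PDE4B and PDE4D, phosphodiesterases that end the cyclic AMP signal of gonadotropins, had log2 fold changes of -0.57 ± 0.19 and 0.54 ± 0.23, and PDE4D was at -0.57 when intron reads were counted too. Genes of the thyroid hormone axis had 0 lower and 1 higher of 11, of retinoic acid metabolism 2 lower and 0 higher of 22, and of hedgehog and Notch signalling 0 lower and 1 higher of 17. NOTCH2, a Notch receptor, had 406 to 489 CPM at 5 weeks and 200 to 479 CPM at 3 weeks (0.51 ± 0.21).

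The same ages were compared in vehicle littermates, with 3 boars at 5 weeks and 4 at 3 weeks. The vehicle boar of litter 41 that was left out is labelled 3 weeks, whereas its table header gives 5 weeks. The header of another vehicle boar, of litter 15 at 3 weeks, names letrozole at the same age. In vehicle testis 2 genes fell (0.0128%) and 0 rose, with 493 lower (3.16%) and 387 higher (2.48%, 5.64% in all) at an unadjusted p below 0.05. DESeq2 placed 50 lower (0.321%) and 25 higher (0.16%), or 0.481% in all. SLC25A34 was 1 of the 2, at 9.02, 6.47 and 7.17 CPM at 5 weeks in litters 14, 15 and 39 and 54.1, 54.0, 44.5 and 57.2 CPM at 3 weeks in all 4 litters (-2.78 ± 0.33, edgeR adjusted p = 0.00126), so that it fell under both treatments. The other is a gene with no symbol in the tables used. KCNN1, NT5C3B and SORD had vehicle log2 fold changes of -0.94 ± 0.24, -0.73 ± 0.16 and -1.33 ± 0.30, with edgeR adjusted p of 0.257, 0.162 and 0.167. The vehicle medians of the macrophage, cell cycle and respiratory chain lists were -0.47, -0.32 and -0.38, beside -0.72, -0.28 and -0.57 under letrozole. In other lists the medians lay farther apart: the vehicle medians of the interferon, cholesterol, steroid synthesis and inflammatory lists were -0.07, 1.06, 0.03 and 0.13, beside -1.02, 0.37, -0.29 and -0.37 under letrozole. These differences between list medians were not tested. The letrozole medians moved with the fit. Without litter 39 the interferon median was 0.02 and the cholesterol median 0.0021. The steroid synthesis median was -0.05 without litter 14 and -0.04 with the intron covariate. The inflammatory median was -0.33 without litter 14 and 0.11 with the intron covariate.

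Whether the age difference itself differed between treatments was tested as the letrozole difference minus the vehicle difference. No gene passed in edgeR (0%, smallest adjusted p = 1), 301 genes had an unadjusted p below 0.05 (1.93%, with 0.942% below 0 and 0.987% above), and DESeq2 placed 1 gene higher (0.00641%) and 0 lower. That gene has no symbol in the tables used. For KCNN1 the difference was -0.88 ± 0.33 (edgeR unadjusted p = 0.0142), and for SLC25A34 it was 0.96 ± 0.42 (edgeR unadjusted p = 0.034). Both genes were named for a small p in the letrozole or vehicle comparison. Each of those comparisons enters the difference, so these unadjusted p-values are affected by that choice. CYP19A1 had 4428, 3559 and 5446 CPM in vehicle boars at 5 weeks and 3674, 3580, 2098 and 4925 CPM in vehicle boars at 3 weeks. Its difference between treatments was -1.23 ± 0.55 (edgeR unadjusted p = 0.0384). SULT2A1 had 385, 235 and 719 CPM in vehicle boars at 5 weeks and 169, 237, 403 and 321 CPM at 3 weeks, with a difference of -1.21 ± 0.55 (edgeR unadjusted p = 0.0383). The 5 smallest p-values with a symbol belonged to GLDN, TULP1, GUSB, OLFML2B and TESK2, and their unadjusted p ran between 0.000714 and 0.00283. GLDN, the adhesion protein gliomedin, had 91.4, 61.6, 19.3 and 42.8 CPM at 5 weeks and 31.5, 55.9, 39.2 and 36.5 CPM at 3 weeks under letrozole, and 23.6, 33.3 and 13.7 CPM at 5 weeks and 71.5, 60.3, 69.3 and 66.9 CPM at 3 weeks under vehicle. GLDN was thus lower at 5 weeks in the 3 vehicle litters with both ages, and its letrozole values overlapped. GUSB, the lysosomal beta-glucuronidase, had 154, 65.5, 79.1 and 213 CPM at 5 weeks and 458, 106, 407 and 425 CPM at 3 weeks under letrozole, and 271, 310 and 264 CPM at 5 weeks and 275, 268, 213 and 695 CPM at 3 weeks under vehicle.

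**Figure D5:**
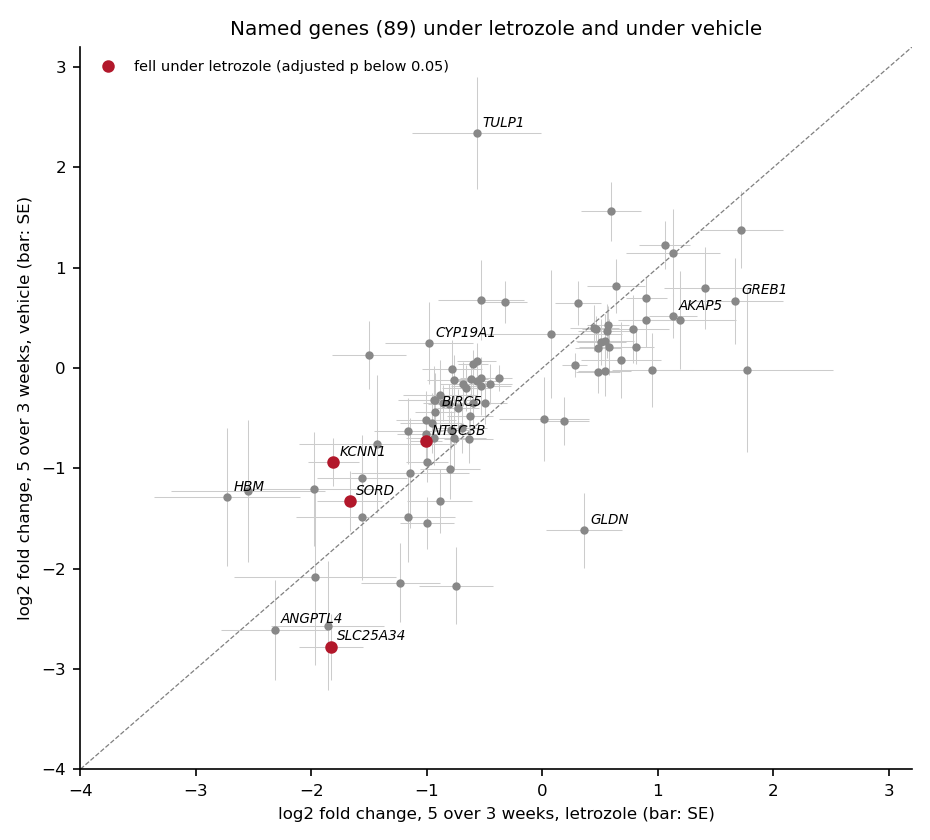
Log2 fold change, 5 over 3 weeks, under letrozole (horizontal) and under vehicle (vertical) for the 89 named genes, with standard errors as bars, a dashed line of equality and the 4 genes that fell under letrozole in red. SLC25A34 lies at -1.83 and -2.78, KCNN1 at -1.81 and -0.94, and GLDN, TULP1 and CYP19A1 lie off the dashed line.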

How the data were processed

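The starting point was the deposited table of each of 24 libraries (polyadenylated RNA, TruSeq libraries, per the labels' protocols). Per the file headers, the authors gave counts of total exon reads per gene, the unit tested, and RPKM, used here only for levels of markers. Per the series design text, CLC Genomics Workbench was used, and the genome build is not given in the sources used here. Coordinates are those of the tables, with 1 added to each start. Of 21166 genes, 15597 passed filterByExpr and 5569 were removed. In R 4.3.3, edgeR 4.0.16 was fitted to 23 libraries in 6 groups of treatment and age with litter as a block, TMM scaling and 14 residual degrees of freedom. Pairing rests on the design text, which puts littermates in each replicate, and on the title number. Deviations of same-litter libraries from their group means correlated at -0.09 to 0.61. DESeq2 1.42.0, other scalings, filters and left-out litters were alternatives. P-values set a difference against the spread between boars that is left after the litter block, estimated over all 6 groups. The members, lists and rule for named genes were chosen with earlier results of these data known. Named genes were up to 12 in each direction past the threshold with a symbol and 1 sign in all 4 litters (or, where under 5 passed, the 5 smallest p), up to 4 per list where members passed and 2 otherwise, a fixed set of 6 hormone genes, and the leading genes of the vehicle and difference tests. Of 774 list genes, 639 were tested, 43 were removed as low and 92 had no match. Other list genes named were chosen after their values were seen. The fit was tested on counts simulated without effects of litter, lane, intron share or exon length. Some named genes are not reported here.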

Additional observations from a re-analysis of the deposited data

Results flagged for a closer look

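In 190 groups of 4 letrozole boars, 11 had a highest or lowest value far from the other 3 by Dixon's test. Chance flags about 1 in 20 groups. At 5 weeks the high boars were litter 14 for AMDHD1 (12 CPM), litter 15 for MS4A2 (15.2 CPM), and litter 41 for ANGPTL4 (46.8 CPM) and TESK2 (20.7 CPM). At 3 weeks the high boars were litter 14 for KCNN1 (25.2 CPM), ANGPTL4 (357 CPM) and TULP1 (0.482 CPM), and litter 39 for PDE4B (14.2 CPM) and MX2 (173 CPM). GUSB was low at 3 weeks in litter 15 (106 CPM, others 407 to 458 CPM), and the intron share was high in the same boar (17.7%, others 7.41 to 8.21%).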

How the results depend on the processing

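In letrozole testis the main count of 4 genes (0 higher, 4 lower) was also 4 with RLE scaling, without a filter on low counts and with a filter of 1 CPM in 4 libraries. DESeq2 gave 440, unique exon reads 7, exon plus intron reads 6, lane terms 5, the intron covariate 1, the unclear vehicle boar entered at 3 and 5 weeks 1 and 5, and leaving out the boar whose header differs 3. It was 0 with no replicate block (no pairing by litter), 0 with the compared groups alone, 0 in the 2 litters with both letrozole boars in 1 lane (chosen after seeing the data), and 0 to 9 when 1 litter was left out. Fits that left out libraries also had fewer samples, and the cause of the changed counts was not tested. The vehicle count of 2 was 1 with no replicate block, 75 with DESeq2, 8 without the filter, 0 and 19 with the unclear boar entered at 3 and 5 weeks, 138 with the compared groups alone, 15 with the intron covariate, 1 with lane terms, 1 without the boar whose header differs, and 0 to 1 when 1 litter was left out. The count for the difference between treatments was 0, and 1 with DESeq2. Named genes kept their sign in 1576 of 1595 results under alternatives. Those that reversed were LHCGR (-0.0061 and -0.00062 with the unclear boar at 3 and 5 weeks, -0.46 to 0.30 when 1 litter was left out, with -0.46 and -0.07 without litters 14 and 15, -0.12 with the compared groups alone, -0.04 with unique reads, -0.75 with the intron covariate), AMH (-0.03 and -0.0071 with the unclear boar, -0.96 to 0.58 when 1 litter was left out, with -0.96 without litter 41, -0.42 with the compared groups alone, -0.14 with unique reads, -0.92 with lane terms, -0.94 in the same-lane litters), PDE4D (-0.57), ESR1 (-0.009), GLDN (-0.47) and TULP1 (0.04) with exon plus intron reads, and GLDN without litter 14 (-0.19 to 0.71 when 1 litter was left out). With 4 litters, exact sign flips over litters could not give a two-sided p below 0.125, and low counts limit genes under 1 CPM.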
